A study of Mus musculus with 4 samples.

Results

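The region described here is the stretch of mouse chromosome 15 from 59 to 60 Mb (mm9 build) that holds Trib1, examined in a list of FAIRE-seq peaks from cancer cells of a mouse mammary tumour model. Its peaks were selected by position, as every listed peak whose midpoint fell inside that window of 1 Mb, and the window itself was chosen from the list because it held many peaks. There were 10 such peaks, out of 126 on chromosome 15 and 3190 in the whole list. The number of peaks in the window and their closeness to each other are therefore given as a description, with no test.

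FAIRE-seq crosslinks chromatin with formaldehyde and shears it. A fraction of its DNA is then sequenced that is enriched for nucleosome-poor DNA such as active promoters and enhancers. All cells came from mice on the FVB background with the MMTV-PyMT genotype, in which a mammary tumour virus promoter drives the polyomavirus middle T antigen. The hyperglycemic group was labelled as cancer cells from MMTV-PyMT/PANIC mice and the euglycemic control group as cancer cells from MMTV-PyMT mice, so glucose state and mouse line cannot be told apart. Freshly isolated cells were grown in DMEM with 10% fetal bovine serum and given no treatment. Each of the 2 conditions had 1 FAIRE library and 1 input DNA library, without replicates, and the labels give no age. The only data used here were 1 list of peaks that names no library. Nothing below can be assigned to hyperglycemic or to euglycemic cells, the read depth is unknown, and the list cannot be used to check the labelled cell type.

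Trib1 encodes a tribbles pseudokinase, a protein with a kinase fold that works mainly as a scaffold. It recruits the ubiquitin ligase COP1 to C/EBP transcription factors, which leads to their degradation, and it also binds the kinase MEK1. It is best known for roles in myeloid leukaemia, in macrophages and in the control of liver lipid synthesis. Regulatory elements of a gene may lie at its promoter or far from it, and FAIRE reports both kinds without showing which gene an element serves.

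No listed peak lay at Trib1 itself. The gene was placed near 59.48 Mb, a position stated to about 10 kb, and all distances below run from that point to a peak's midpoint. No peak lay within 50 kb of it, 2 lay within 100 kb and 8 within 200 kb. The 10 peaks fell into 2 groups on either side of the gene, with 6 at lower coordinates and 4 at higher coordinates. The terms lower and higher side refer to chromosome coordinates.

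The group of 6 spanned 125.5 kb and lay between 137 and 261 kb from Trib1. Its outermost peak, chr15:59218156-59219070, was 915 bp wide and had a score of 73.06, where the score is a number the authors' peak caller attached to each peak. The next, chr15:59244319-59245368, was 1050 bp wide and scored 66.38. Both were above the list's median score of 64.42. The third, chr15:59279364-59280909, lay 199.9 kb from Trib1, was 1546 bp wide and scored 143.04. It stood apart from every other peak of the window in both measures. It had the second highest score of the 126 peaks of chromosome 15 and ranked 74 among 3189 nuclear peaks, and its width ranked 4 on the chromosome and 40 among nuclear peaks.

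The next peaks on the lower side formed a close pair. They were chr15:59311846-59312817, 972 bp wide with a score of 72.57, and chr15:59313102-59313932, 831 bp wide with a score of 60.63. Only 284 bp separated them. They lay 168 and 166 kb from Trib1. The innermost peak of this side, chr15:59342779-59343661, lay 137 kb from the gene, was 883 bp wide and scored 65.16. Apart from the pair, neighbours on the lower side were evenly spaced, with gaps of 25.2, 34.0, 30.9 and 28.8 kb between the end of one peak and the start of the next.

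The group of 4 spanned 111.9 kb and lay between 85.7 and 197 kb from Trib1. The peak nearest to the gene in the whole list was its first member, chr15:59565326-59565976, which was 651 bp wide and scored 63.27. This was the narrowest peak of the window. A second peak followed after 4.576 kb, chr15:59570553-59571456, 91.0 kb from Trib1, 904 bp wide with a score of 75.18, the highest of this side. The remaining peaks were chr15:59626996-59627834, 147 kb from the gene and 839 bp wide with a score of 63.64, and chr15:59676282-59677223, 197 kb from the gene and 942 bp wide with a score of 60.45. The last had the lowest score of the window. Gaps on this side were 4.576, 55.5 and 48.4 kb, of which the last 2 were longer than any gap of the lower side.

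**Figure D1:**
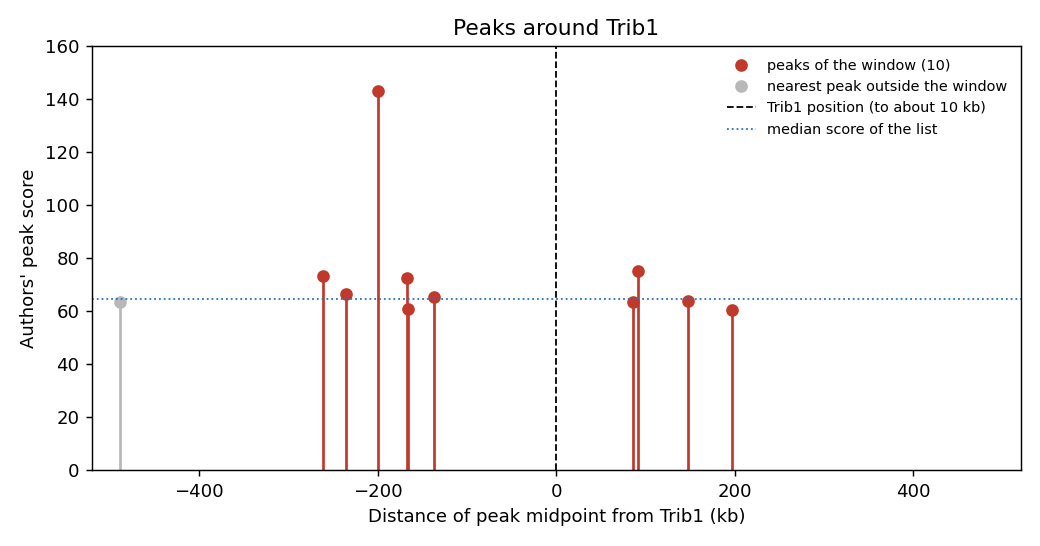
Score of each peak (vertical axis, the authors' value) against the distance of its midpoint from Trib1 in kb (horizontal axis, negative at lower coordinates); red points are the 10 peaks of the window, the grey point is the nearest peak outside it, the dashed line is Trib1 and the dotted line the list's median score of 64.42. The gene lies in a gap between 6 peaks on one side and 4 on the other, and 1 peak, at 143.04, stands above the rest.

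The gap that held Trib1 was 221.7 kb long, the longest within the window. Trib1 lay 136 kb above its lower edge and 85.3 kb below its upper edge. Within the 459.1 kb that the 10 peaks spanned, 6 of 46 positions taken every 10 kb (13.0%) were at least as far from a peak midpoint as Trib1 was. The gene thus sat in the part of the cluster that was emptiest of listed peaks. Against the chromosome as a whole the gap was of ordinary length, since 57 of the 125 gaps between neighbouring peaks of chromosome 15 (45.6%) were shorter. Over chromosome 15, 15.2% of positions at steps of 10 kb had a peak midpoint as near as the 85.7 kb found at Trib1, and 17.2% had one within 100 kb. The median distance over those positions was 464 kb. A short distance at Trib1 follows from the choice of a window with many peaks, so nothing is read from it.

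Between members, the median gap was 30.9 kb (9 gaps, range 0.284 to 221.7 kb), against 278 kb over chromosome 15 (125 gaps, the members' included) and 279 kb over the autosomes (3138 gaps). All 9 gaps were below the chromosome's median. Of the 9, 8 were under 60 kb, as were 36 of the 125 gaps of chromosome 15 (28.8%). Short gaps follow from the way the window was chosen.

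**Figure D2:**
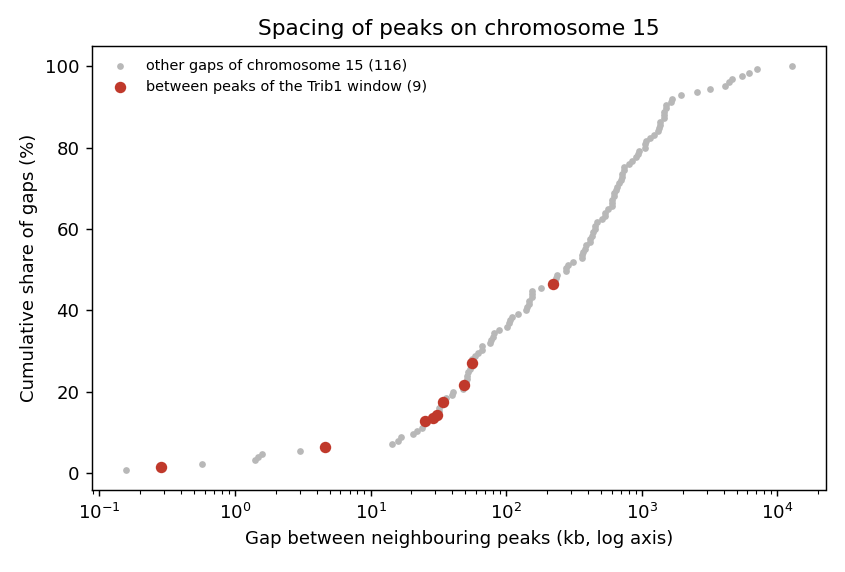
Cumulative share of the 125 gaps between neighbouring peaks of chromosome 15 (vertical axis, %) against gap length in kb (horizontal log axis); red points are the 9 gaps between peaks of the Trib1 window, grey points the other 116. The red points lie at the short end up to 55.5 kb, except the 221.7 kb gap that holds Trib1.

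At the shortest range the window held 2 close pairs. The pair of the lower side and the first pair of the higher side gave 4 of 10 peaks with another peak within 10 kb, where the share was 12.6% over nuclear peaks and 12.7% over chromosome 15. Only the lower pair, 2 of 10 peaks, lay within 2 kb of each other, against 3.64% of nuclear peaks and 9.52% of those on chromosome 15. All 10 peaks had a neighbour within 100 kb, against 49.8% of nuclear peaks and 57.1% of those on chromosome 15. These 4 and 2 peaks come from 2 pairs and 1 pair, so they are not separate events. The shares over nuclear peaks and over chromosome 15 include the 10 members.

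When peaks were linked wherever a gap was at most 100 kb, the 2 sides formed 2 separate chains, of 6 and 4 peaks. Chromosome 15 had 82 such chains, counting the 54 that were single peaks. The lower side was the sole chain of 6 or more peaks on the chromosome, and 9 of the 2193 autosomal chains were that long, the longest with 8. Taken as runs of consecutive peaks, 3 of 3062 autosomal runs of 6 (0.098%) were as short as its 125.5 kb, itself included, against a median of 2880 kb. Of the autosomal runs of 4, 77 of 3100 (2.48%) were as short as the 111.9 kb of the higher side. Neighbouring runs share peaks, and the run lengths were taken from the members, so these shares do not count separate places.

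The cluster was followed by a long stretch without peaks and preceded by one of ordinary length. On the lower side the nearest peak outside the window, chr15:58990323-58991110, was 788 bp wide and scored 63.45. Its midpoint missed the window's edge by 9.28 kb, and 227 kb without a peak separated it from the first member, less than the chromosome's median gap of 278 kb. That first member lay 219 kb inside the window and the last member 323 kb inside its other edge. Beyond the last member no peak was listed for 1.36 Mb, up to chr15:61038835-61039800, which was 966 bp wide and scored 63.08. That gap ranked only 19 in length among the 125 gaps of chromosome 15, of which the longest was 12.8 Mb. The window from 60 to 61 Mb was empty, the window from 58 to 59 Mb held 3 peaks, and the window from 61 to 62 Mb held 9.

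Gene order around Trib1 was taken from the RefSeq table of another build, GRCm38.p6, from which no position was used. On the lower side, the nearest gene in that order was the non-coding Gm36677, and the nearest protein-coding gene was Nsmce2, a SUMO ligase of the SMC5/6 complex that acts in DNA repair. Washc5, a subunit of the actin-regulating WASH complex, and Sqle, the squalene epoxidase of cholesterol synthesis, came next. On the higher side, 14 genes were listed between Trib1 and Lratd2, and 1 of them, 4933412E24Rik, was protein-coding. The others were 8 pseudogenes, 3 long non-coding RNAs, 1 snRNA and 1 snoRNA. Gene density on the 2 sides was not compared. No peak was placed in an exon, intron or promoter, because an mm9 annotation was not used here. Distances to other tribbles genes and to partners such as Cop1 and Cebpa were not analysed here for the same reason.

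Among equal windows of chromosome 15, the Trib1 window held the most peaks. Its 10 peaks were 7.94% of the chromosome's peaks, and the other windows held 1.16 on average. Of 101 windows between the chromosome's first and last peak, 51 (50.5%) were empty, 18 held 1 peak and 14 held 2. The Trib1 window alone reached 10 peaks, which is 0.99% of the windows. Over the autosomes 3 of 2382 windows (0.126%) reached 10, the Trib1 window being one of them. Its peaks covered 9533 bp, or 0.953% of the window, so that even here nearly all of the sequence was outside any peak. When a window of 1 Mb was slid along the chromosome in steps of 100 kb, the highest count was 11, at 3 of 1007 places. These 3 places held Trib1, but the 10 places that held Trib1 ranged from 4 to 11 peaks, and a place without Trib1 reached 10.

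**Figure D3:**
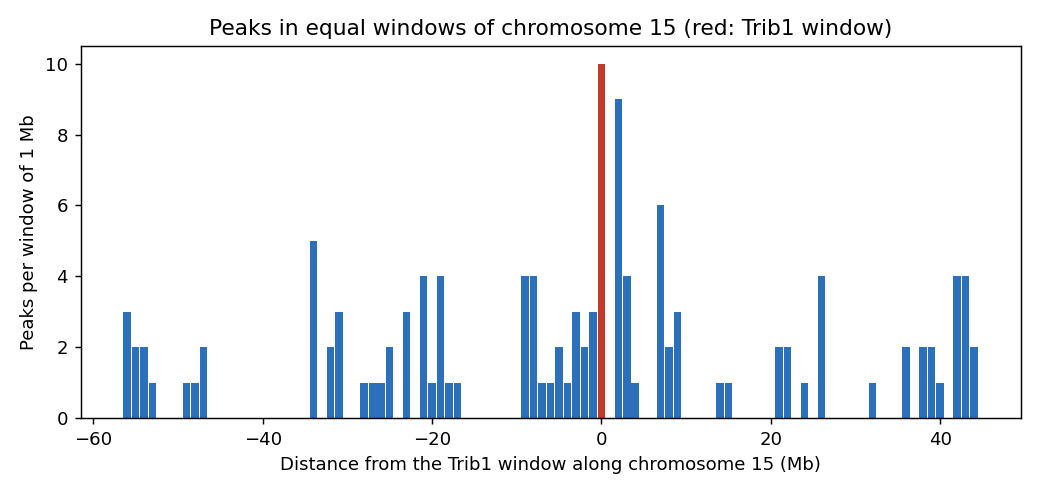
Number of peaks in each window of 1 Mb of chromosome 15 (vertical axis) against distance from the Trib1 window in Mb (horizontal axis); the red bar is the Trib1 window. It holds 10 peaks, its neighbours 3 and 0, and the next highest bar, 2 windows further on, 9.

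The peaks of the window had middling scores. Their median score was 65.77 (range 60.45 to 143.04), against 65.47 for the other 116 peaks of chromosome 15 and 64.42 for all nuclear peaks. Of the 10, 6 reached the list's median score, as did 50% of nuclear peaks. Just 1, the peak of 143.04, reached the upper quartile of 81.04, against 25% of nuclear peaks, and the same peak was the only one of 100 or more, against 12.1%. At the other end none of the 10 was at or below the lower quartile of 55.86, against 25%. Apart from the highest, all scores thus fell between 60.45 and 75.18, close to the middle of the list. The median on the lower side was 69.48 (6 peaks) and on the higher side 63.46 (4 peaks), and the ranges of the 2 sides overlapped.

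High scores were more frequent in some of the other dense windows and as rare in others. From 61 to 62 Mb on chromosome 15, 9 peaks spanned 898 kb with a median score of 92.22, and 5 of the 9 reached the upper quartile. From 66 to 67 Mb, the densest window of the chromosome after these, 6 peaks had a median score of 60.6 and none reached it. Among the 5 other autosomal windows with 9 or more peaks, which include the one from 61 to 62 Mb, medians ran from 68.16 to 92.22, all above that of the Trib1 window. The upper quartile was reached by 7 of 15 peaks on chromosome 5 from 91 to 92 Mb, by 6 of 11 on chromosome 13 from 111 to 112 Mb and by 3 of 9 on chromosome 10 from 21 to 22 Mb. It was reached by 1 of 9 on chromosome 7 from 119 to 120 Mb, as by 1 of 10 here. The lowest scores of these 5 windows, 51.27 to 56.59, were all below the 60.45 of the Trib1 window. These are comparisons of single windows, and the difference in scores was not tested.

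From first to last peak the Trib1 window had the shortest span of the 6 windows with 9 or more peaks, but not the shortest gaps. Its peaks spanned 459.1 kb, and those of the other 5 spanned 464.6 to 898 kb. Median gaps were shorter on chromosome 13 from 111 to 112 Mb, at 14.2 kb with 11 peaks, and on chromosome 5 from 91 to 92 Mb, at 26.9 kb with 15 peaks, than the 30.9 kb here. The nearest in span was chromosome 10 from 21 to 22 Mb, with 9 peaks over 464.6 kb. Its median gap of 29.0 kb was also shorter than that of the Trib1 window. That window had 3 of 9 peaks in the upper quartile of scores and a lower median width, 801 bp. Over all autosomal runs of 10 consecutive peaks, 6 of 2986 (0.201%) were as short as the 459.1 kb of the Trib1 window, itself included. The shortest spanned 399 kb, and the median run 5696 kb.

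**Figure D4:**
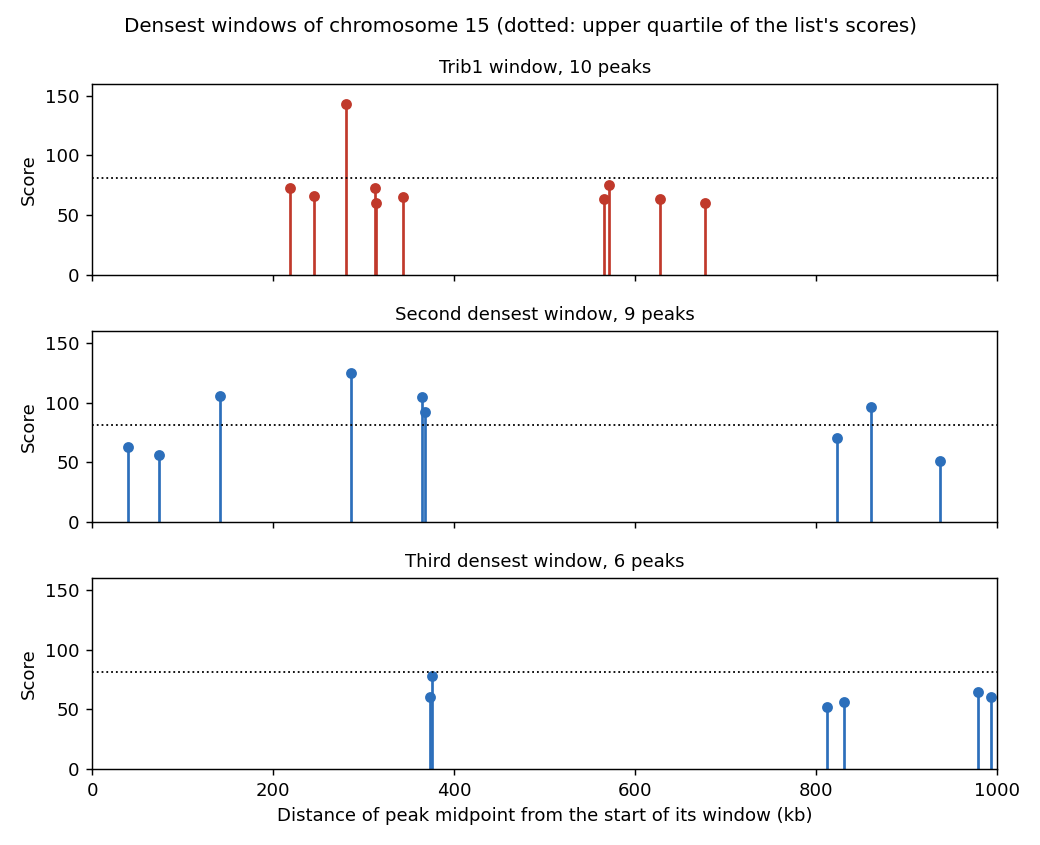
Score of each peak (vertical axis) against the distance of its midpoint from the start of its window in kb (horizontal axis), for the Trib1 window (red, 10 peaks) and the next 2 densest windows of chromosome 15 (blue, 9 and 6 peaks); the dotted line is the upper quartile of all scores, 81.04. One peak of the Trib1 window, 5 of the window with 9 and none of the window with 6 lie above the line.

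The peaks were mostly wider than the median of the list. The median width was 909.5 bp (range 651 to 1546 bp), against 788.5 bp for the rest of chromosome 15 and 779 bp for all nuclear peaks. Of the 10, 9 were at or above the nuclear median width, against 50% of nuclear peaks, the exception being the 651 bp peak nearest to Trib1. At or above the upper quartile of 921 bp were 4 of 10, against 25.1%. Peaks of 915 and 904 bp lay just under that quartile, so the count of 4 depends on small differences in width. The median on the lower side was 943.5 bp (831 to 1546 bp) and on the higher side 871.5 bp (651 to 942 bp). Width did not enter the choice of the window, but neighbouring peaks of one list are not replicates, and the difference in width was not tested. In the other dense windows median widths ran from 639 to 997 bp, on both sides of the value here.

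**Figure D5:**
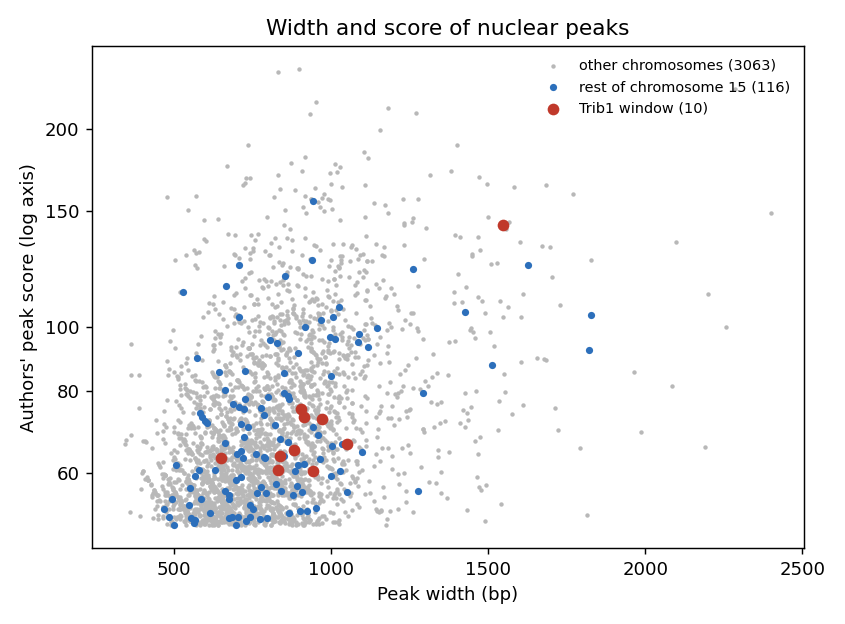
Score (vertical log axis, the authors' value) against width in bp (horizontal axis) for 3189 nuclear peaks; red points are the 10 peaks of the Trib1 window, blue points the 116 other peaks of chromosome 15 and grey points the peaks of other chromosomes. Of the red points 9 lie between scores of 60.45 and 75.18, and 1 lies at 1546 bp and 143.04.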

How the data were processed

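Per the submitters' processing notes, the authors called peaks with MACS against the mm9 build. How reads were aligned and filtered, the caller's settings, and which library served as control are each not given in the sources used here. A peak called against input would mark open chromatin, and one called against the other condition a difference. The deposited list gives a start, an end and a score for each peak. The scale of the score is not stated, and it served only to describe and rank peaks within the list. The lowest score, 50.01, bounds what was listed, so weaker regions are missing from every count.

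Starts were counted from 1. Gaps run from the end of one peak to the start of the next, and windows were 1 Mb on a grid from 0, between each chromosome's first and last peak. Nuclear peaks exclude the 1 mitochondrial peak. Position of Trib1 was the one stated in the rule that chose the region, and was not checked against an mm9 annotation. All 10 peaks are named. The 2 next densest windows of chromosome 15 were named by rule, and the denser windows elsewhere were added afterwards. Members, lists and alternatives were chosen with earlier results of these data known. Runs, chains and sliding windows were added after the data were seen. Work used Python 3.11.15 with numpy 2.4.6, pandas 2.3.3 and matplotlib 3.10.9. Functions were checked on planted positions. With 1 list there were no replicates, and no test was made.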

Additional observations from a re-analysis of the deposited data

How the results depend on the processing

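No paired analysis was possible because no group had a second library and the single list names none. The window remained the densest of chromosome 15 in 9 of the 11 settings tried on that chromosome, with 6 to 13 peaks, counting 1 tie. Because the window was chosen for its many peaks and several settings recount those same peaks, a high rank was nearly fixed in advance. The tally is therefore a description and no support for the rank. The 2 windows of the grid shifted by 0.5 Mb count as 2 of the settings. At or above the median score it held 6 peaks, level with the window from 61 to 62 Mb, and no peak had a neighbour within 10 kb (0 of 6). At or above the upper quartile the window from 61 to 62 Mb ranked first with 5 peaks. The Trib1 window then held 1 peak and ranked 5, a rank shared by all windows with 1 such peak (20 of 99, itself included). That 1 peak made the nearest distance to Trib1 -199.9 kb, on the other side of the gene from the 85.7 kb over all peaks, the median width 1546 bp and the median score 143.04, and it had 0 neighbours within 10 kb. Windows of 0.5 Mb cut off the higher side and left 6 peaks. With the grid shifted by 0.5 Mb, a choice made after seeing the data, the lower of the new windows held 7 peaks and ranked first, and the higher held 4 and ranked 7. Among windows of all autosomes the rank was 3. Peaks with a close neighbour were 4 within 10 kb, 2 within 2 kb, 10 within 100 kb, and 2 after peaks within 1 kb were merged. Without the highest scoring peak the medians of width and score were 904 bp and 65.16.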
